A study of Mus musculus with 16 samples.

Results

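Treh and AC151971.2 are neighbouring mouse genes that start on opposite strands of chromosome 9 and are transcribed away from each other. The authors' means of both were higher in colon tissue of mice lacking Smarcad1 in the intestinal epithelium than in wild type (WT) colon, with and without colitis. AC151971.2 passed the authors' test in both conditions and Treh in colitis only, and the WT means of Treh rest on few reads. The pair was chosen by name, after these differences had been seen, so the genotype differences below are a description of measured values and carry no test. They are 2 of the 5171 distinct genes in the 4 deposited tables, each of which holds the genes that passed the authors' adjusted p-value of 0.05 in 1 comparison. A gene in any of these tables is called listed here.

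RNA was sequenced from colon tissue of male C57BL/6 mice, taken from its middle part, as the sample labels and the study's methods give it, while the series' design text names the small intestine. The knockout (KO) mice carried Smarcad1 fl/fl alleles and Vil-Cre, a transgene that expresses Cre recombinase from the villin promoter and therefore in epithelial cells, so the muscle, stroma and immune cells of KO tissue kept their intact alleles. The floxed allele came from 1 targeted line. All mice, WT and KO alike, received an enriched microbiota 2 weeks before colitis was induced, by transfer of bedding from donors of another facility. For colitis, mice drank water with 1% dextran sodium sulphate (DSS), a polysaccharide that injures the epithelium of the colon, for 15 days, and control mice received no DSS. There were 3 libraries each of WT and KO controls, and 5 each of WT and KO mice with colitis. The ages of the mice are not given in the labels. The tables give 1 value per gene and group, the authors' mean over its libraries of log2 RPM (reads scaled to the library total), so no SD is given. Read counts by sample that the study lists in a supplement were not used here.

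Trehalase, the product of Treh, is an enzyme anchored to the outer face of the cell membrane. It splits trehalose, a disaccharide found in fungi, insects and some bacteria, into glucose. It is known from the brush border of the small intestine and from the kidney tubule, and belongs with lactase, sucrase-isomaltase and maltase-glucoamylase to the disaccharidases of the enterocyte surface. AC151971.2 is annotated as a long intergenic non-coding RNA under the symbol BC049987, and its role is not known from the sources used here. Smarcad1 is a chromatin remodelling ATPase that helps to maintain repressive chromatin.

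Treh (ENSMUSG00000032098) is a protein-coding gene on the plus strand and lies at chr9:44673233-44686305 (GRCm38). AC151971.2 (ENSMUSG00000110755) lies upstream of it on the minus strand, at chr9:44670453-44672238. The annotated starts are 995 bp apart and no exon of either gene overlaps the other. GENCODE vM21 has the same coordinates for both genes as the tables. It gives 4 transcripts for Treh, of which the longest, Treh-201, has 15 exons, with a first exon of 108 bases that holds 28 untranslated bases followed by the start codon, and a first intron of 7719 bases. It gives 3 transcripts for AC151971.2, of which the first has 2 exons of 97 and 821 bases, while the third is a single exon of 1255 bases.

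**Figure D1:**
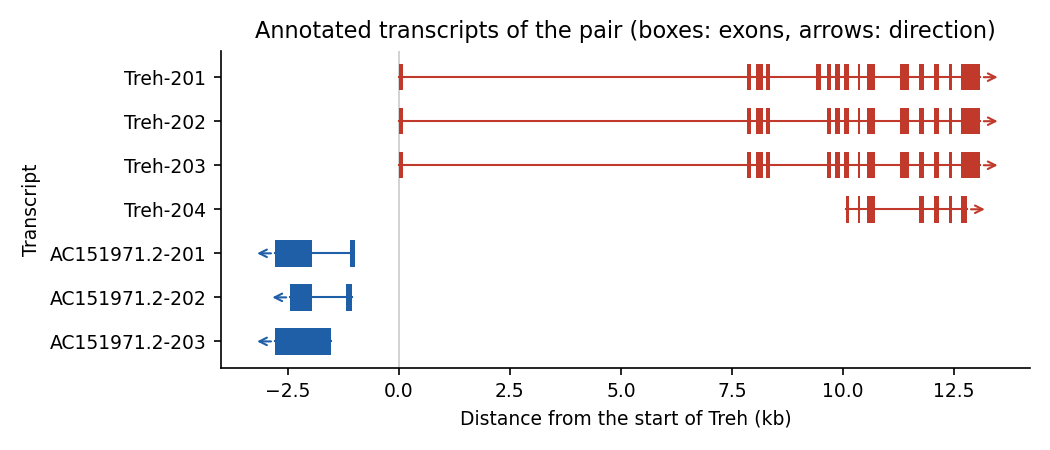
Exons (boxes) and introns (lines) of the GENCODE transcripts of Treh (red) and AC151971.2 (blue), by distance in kb from the start of Treh, with arrows in the direction of transcription. The 2 genes point away from each other across 995 bp, and Treh-204 lacks the first exons of the other Treh transcripts.

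The promoter windows are shown because a shared region of less than 1000 bp lies between these starts. Each RefSeq window (build GRCm38.p6) runs from 250 bases before the annotated start to 50 bases from it onward and is written 5′ to 3′ along the gene's own strand. Capitals mark matches to the motifs searched on both strands. The window of AC151971.2 is chr9:44672211-44672510 on the minus strand, from a RefSeq start 22 bp upstream of the start in the tables, and that of Treh is chr9:44672983-44673282 on the plus strand.
AC151971.2: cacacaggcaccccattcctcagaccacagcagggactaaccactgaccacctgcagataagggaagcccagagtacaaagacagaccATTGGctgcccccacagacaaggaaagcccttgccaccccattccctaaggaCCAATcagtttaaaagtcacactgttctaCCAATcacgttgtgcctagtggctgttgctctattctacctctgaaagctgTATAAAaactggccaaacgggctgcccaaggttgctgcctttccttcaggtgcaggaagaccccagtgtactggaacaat
Treh: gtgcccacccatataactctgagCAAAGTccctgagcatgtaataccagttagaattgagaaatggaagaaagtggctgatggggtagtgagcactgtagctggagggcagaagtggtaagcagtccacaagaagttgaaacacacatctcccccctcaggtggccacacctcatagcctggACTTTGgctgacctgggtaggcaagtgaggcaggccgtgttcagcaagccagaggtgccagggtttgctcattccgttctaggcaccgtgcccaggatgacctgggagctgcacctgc

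The windows shared none of the motifs searched. That of AC151971.2 held 1 TATA box (TATAAA), whose first base is at position -30 from the RefSeq start, a spacing typical of TATA promoters. The start used for the 995 bp gap lies 22 bp downstream of the RefSeq start, so the spacing from it is wider. It also held 3 CCAAT boxes (CCAAT), on the gene's strand at -110 and -81 and on the other strand at -162. The window of Treh held neither. It held 2 matches to the HNF4 core (CAAAGT), at -227 on the gene's strand and at -68 on the other strand, and that of AC151971.2 held none. Neither window held the GC box (GGGCGG), the HNF1 motif (GTTAAT), the CDX2 motif (TTTATG) or the searched form of the GATA motif (TGATAA). The form AGATAA was not searched, and its letters occur in the window of AC151971.2. Among all 32851 promoter windows of the same length, 13.6% held the TATA box, 37.4% CCAAT, 14.4% the HNF4 core, 35.7% the GC box, 7.10% the HNF1 motif, 11.9% the CDX2 motif and 9.05% TGATAA. Both windows were poor in CpG dinucleotides, with 2 in AC151971.2 and 3 in Treh against a median of 7 over all windows, and 31.4% of all windows held at most 3. The 472 bases between the windows were not analysed here. These matches describe letters in the windows and no factor was measured.

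Depth sets how far the low values of the pair can be read. The low means fall on steps that whole reads give, with 0 reads entered as 0.9 of a read before the logarithm, and the geometric mean library size that follows was 10.1 M reads for WT and 9.77 M for KO among controls, and 8.005 M for WT and 9.87 M for KO with colitis. A mean of 3 reads in each library then lies at -1.75 and -1.70 log2 RPM for the WT and KO controls and at -1.42 and -1.72 with colitis, and is used as a floor. The targeted gene was lower in both KO groups: Smarcad1 stood at 5.77 log2 RPM in control WT and 4.59 in control KO colon, and at 5.68 and 4.55 with colitis.

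By its group means, Treh was near the limit of detection in WT colon and above it in KO colon. Its group mean in log2 RPM was -1.92 in WT control, 0.53 in KO control, -2.71 in WT colitis and 1.21 in KO colitis. Both WT means lay under the floor and both KO means lay above it. From high to low the groups were ordered as KO with colitis, KO control, WT control and WT with colitis, and whether neighbours in this order differ beyond the spread between mice cannot be read from group means.

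The reads behind the WT means of Treh could be recovered as sets, without knowing which library held which count. In WT colitis only 1 set gives the mean: 1 of the 5 libraries had 0 reads, 3 had 1 read and 1 had 3 reads, together 6 reads (exact 95% Poisson interval 2.20 to 13.1, counting error only). In WT control 1 of the 3 libraries had 0 reads, and the other two had either 3 and 7 or 1 and 21, which is 10 or 22 reads in all. No WT library in colitis thus had over 3 reads of Treh. In KO control no library was at 0, the 3 libraries held at least 44 reads together, and their geometric mean was 14.1 reads. A WT control library with 21 reads, as 1 of the 2 sets has it, would lie above this geometric mean. In KO colitis the geometric mean was 22.8 reads per library, and the sets were too many to tell apart.

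AC151971.2 was low but detected in WT colon. In KO colon it was higher, yet under the median of all listed genes, which was 5.08 log2 RPM in KO control and 5.15 in KO colitis. Its group mean in log2 RPM was -1.09 in WT control, 3.72 in KO control, -0.15 in WT colitis and 4.10 in KO colitis, all above the floor. The WT means correspond to a geometric mean of 4.76 reads per library in control and 7.21 in colitis. At most 1 of the 3 WT control libraries and at most 2 of the 5 WT colitis libraries had 0 reads of it. In the KO groups the geometric mean was 128.8 reads per library in control and 168.8 in colitis. The order of the levels was that of Treh, except that WT colitis stood above WT control.

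**Figure D2:**
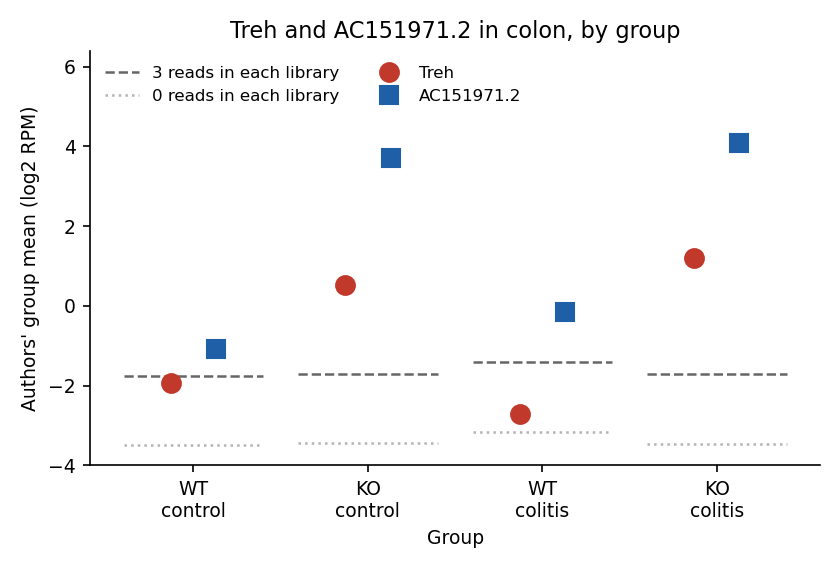
Authors' group means in log2 RPM of Treh (red circles) and AC151971.2 (blue squares) in the 4 groups, with the level of 3 reads (dashed) and of 0 reads (dotted) in each library. Treh lies under the 3-read level in both WT groups, and all 4 KO points lie above 0 log2 RPM.

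To see how loss of Smarcad1 changed the pair without inflammation, KO control was compared with WT control. AC151971.2 was higher in KO by 4.81 on the log2 scale, a 28.0-fold difference of the authors' means, and is in the authors' table of this comparison. Treh was higher in KO by 2.45, which is 5.48-fold, and is not in that table. This fold compares geometric means, which the WT library with 0 reads lowers, and another WT control library may have held 21 reads. With the WT mean raised to 3 reads in each library, the Treh fold was 4.87. The table holds 46 genes, 0.890% of all listed genes, and 56 genes (1.08%) were higher in KO by at least 1 on the log2 scale. By this difference AC151971.2 stood at rank 3 among the 5171 listed genes, after Khdc1a (6.20) and Kirrel2 (5.11), and Treh stood at rank 6. The median difference over all listed genes was 0.00 on the same scale.

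The same comparison was made in colitis. AC151971.2 was higher in KO by 4.25 on the log2 scale (19.0-fold), the highest difference of all listed genes. Treh was higher in KO by 3.92 (15.2-fold), at rank 3 behind Kirrel2 (4.03). Both genes are in the authors' table of this comparison, which holds 56 genes, 1.08% of the listed genes. A difference of at least 1 toward KO was found for 77 genes (1.49%). The Treh fold rests on the 6 reads of the WT colitis group and was 6.17 with the WT mean raised to 3 reads in each library, which moved the gene from rank 3 to rank 7. Only 7 listed genes (0.135%) were higher in KO by at least 2 in both conditions, namely Treh, AC151971.2, Khdc1a, Kirrel2, Bglap3, Nat8f2 and Slc7a15. The comparisons use different mice.

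**Figure D3:**
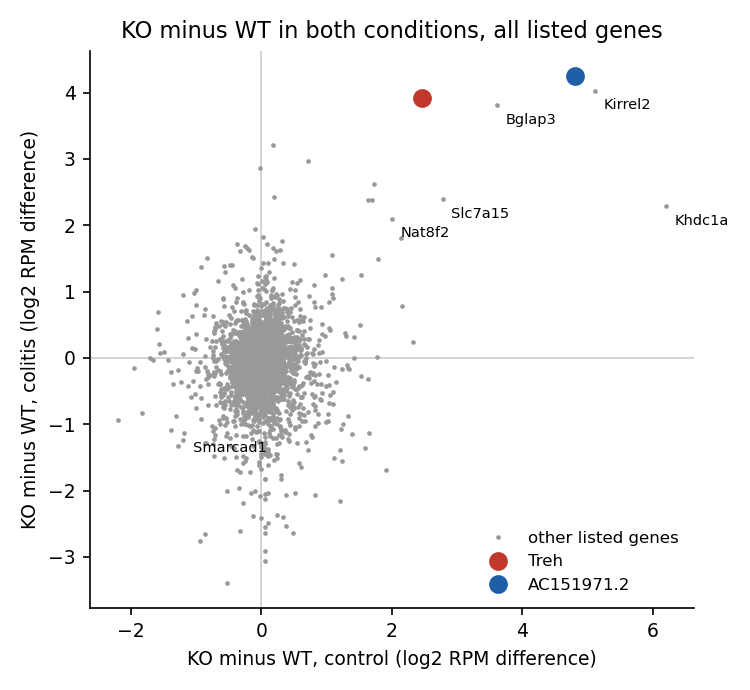
KO minus WT difference of the authors' means (log2 RPM) in control (x axis) and in colitis (y axis) for all 5171 listed genes (grey), with Treh (2.45, 3.92) in red and AC151971.2 (4.81, 4.25) in blue. Most genes lie near 0 on both axes, while the pair lies in the upper right with Kirrel2, Bglap3 and Khdc1a.

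The genotype difference of Treh was larger in colitis than in control by 1.47 on the log2 scale, and that of AC151971.2 was smaller by 0.56 (-0.56, colitis minus control). Neither was tested. With means under 3 reads raised to 3 reads, the value for Treh was 0.34, so its size depends on WT means below the floor. Both WT means are then replaced by floors of unequal depth, at -1.75 log2 RPM in control and -1.42 in colitis.

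To see whether inflammation itself moved the pair, colitis was compared with control within each genotype, and neither gene is in a table of this comparison. These tables hold 3261 genes for WT, 63.1% of the listed genes, and 4056 for KO, 78.4%. In KO colon the mean in colitis minus the mean in control was 0.68 for Treh and 0.38 for AC151971.2, while the median over all listed genes was 0.19. In WT colon it was 0.94 for AC151971.2, against a median of 0.13. The change of Treh in WT colon is not read as a result, since both means lie under the floor. Its log2 values are printed further below only to show their dependence on the processing. In colon tissue, a change in the number of epithelial cells and a change in RNA per cell cannot be told apart, which bears on each comparison of these whole tissue samples.

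Per kilobase of merged exon (2048 bases for Treh and 1454 for AC151971.2), the mean of the non-coding RNA was the higher of the pair in every group. Its level per kilobase in log2 RPM was -1.63 in WT control, 3.18 in KO control, -0.69 in WT colitis and 3.56 in KO colitis. The level of Treh on this scale was -2.96, -0.51, -3.75 and 0.18. AC151971.2 was thus 12.9-fold above Treh in KO control and 10.4-fold in KO colitis, while in the WT groups Treh was under the floor. In WT control the geometric means were only 2.66 reads per library for Treh and 4.76 for AC151971.2, and their order was not tested.

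Within 1 Mb of the pair there were 31 other listed genes, of which 0 are in a KO against WT table, where 0.890% (control) and 1.08% (colitis) of all listed genes stand. Their KO minus WT difference ran from -0.78 (Cd3e, a chain of the T cell receptor complex) to 0.79 (AC122428.4) in control, with a median of 0.06. In colitis it ran from -0.81 (AC126459.1) to 0.54 (Usp2, a ubiquitin protease), with a median of -0.05. Values above 0 were found for 16 of the 31 in control and 13 in colitis. Only listed genes could be examined, and genes of the window outside the tables were not analysed here.

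The nearest of these, Phldb1, meets Treh tail to tail: it lies on the minus strand at chr9:44686304-44735198 and shares its last 2 bases with the last exon of Treh. Whether the libraries kept the strand of the RNA is not given in the sources used here. Phldb1 was abundant, with 7.71 log2 RPM in WT control, 7.80 in KO control, 7.30 in WT colitis and 7.34 in KO colitis. It differed between genotypes by 0.09 in control and 0.04 in colitis, and its part in the value of Treh was not tested. In the authors' tables, 16 of the neighbours rose and 2 fell with colitis in WT, and 19 rose and 8 fell in KO, beside 63.1% and 78.4% of all listed genes in these tables. Among them Cd3d, a gene for a chain of the T cell receptor complex, rose by 3.22 in WT and 2.95 in KO.

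**Figure D4:**
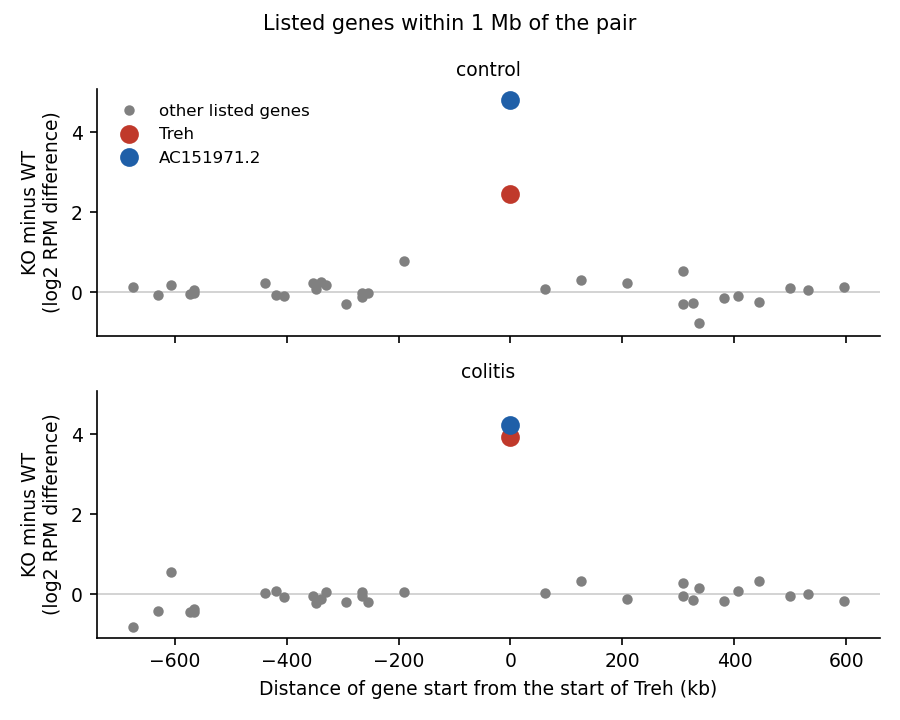
KO minus WT difference (log2 RPM) of the listed genes within 1 Mb of the pair, in control (top) and colitis (bottom), by distance in kb of each gene's start from the start of Treh. The 31 other genes (grey) lie between -0.81 and 0.79, under both Treh (red) and AC151971.2 (blue).

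To set the pair beside genes of the same arrangement, all listed genes on opposite strands with starts at most 1000 bp apart and transcribed away from each other were taken. There were 41 such pairs. Treh with AC151971.2 was the only one with a partner in a KO against WT table, and the only one in which both partners were higher in KO by at least 1 on the log2 scale, in control and in colitis alike. The pair was chosen for this difference, and only 0.890% and 1.08% of all listed genes are in these tables, so nothing is read from these counts. Among the other 40 pairs the smaller of the 2 differences reached at most 0.26 in control and 0.22 in colitis. The partners of these pairs differed from each other in KO minus WT by a median of 0.20 in control and 0.13 in colitis, while Treh and AC151971.2 differed by 2.35 and 0.32. At 995 bp, this pair had the widest gap of the 41.

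The listed genes most like each member across the 4 groups were found by the Euclidean distance of their centred log2 means. The distance rests on 4 means that come from the same libraries for all genes, and it describes a pattern only. For AC151971.2 the nearest was Kirrel2, a membrane protein of the immunoglobulin superfamily, at 0.68, followed by Bglap3, an osteocalcin family gene, at 1.52, and Treh itself at 1.82. Dlk1, an imprinted gene for a membrane protein related to Notch ligands, stood at 2.59. Khdc1c stood at 2.75, with 3 of its 4 means at or under the floor. For Treh the nearest were Bglap3 at 0.97, Dlk1 at 1.28, Gm4961 at 1.40, Nat8f2 at 1.54 and Trpv6, an epithelial calcium channel, at 1.63, with AC151971.2 at rank 8. The distances from Treh use its WT means under the floor, and this order was not recomputed with raised means. Kirrel2 was, like Treh, under the floor in both WT groups, with -3.01 log2 RPM in control and -2.43 in colitis, and had 2.11 and 1.60 in the KO groups. Bglap3 was well detected in all groups, with 4.40 and 3.73 log2 RPM in WT and 8.01 and 7.54 in KO, in control and colitis respectively.

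Genes of sugar digestion and of the brush border were examined beside Treh where they were listed. Of 22 brush border hydrolases, 9 were listed and 0 of them in a KO against WT table, in either direction, beside 0.890% and 1.08% of all listed genes. Their KO minus WT difference had a median of -0.05 in control and -0.05 in colitis, and ran from -0.20 to 0.38 and from -0.44 to 0.71, against medians of 0.00 and -0.01 over all listed genes. The disaccharidase Mgam, which splits maltose and starch fragments, had 8.77 log2 RPM in WT control, 9.02 in KO control, 9.32 in WT colitis and 9.27 in KO colitis. With colitis 3 rose and 5 fell in WT, and 0 rose and 4 fell in KO, beside 63.1% and 78.4% of all listed genes in these tables. Mep1a, a metalloprotease subunit of the brush border, fell by 1.42 in WT and by 1.39 in KO.

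Of 21 genes of sugar transport and glucose metabolism, 5 were listed and 0 in a KO against WT table. In these tables stand 0.890% (control) and 1.08% (colitis) of all listed genes, so little can be read from 0 of 5. They had a median KO minus WT of 0.14 without and 0.21 with colitis. Slc2a5, the fructose transporter of the apical membrane, had a KO minus WT difference of 0.73 in control and 0.94 in colitis. Fbp1, an enzyme of glucose synthesis, had a difference of -0.12 in control and 1.51 in colitis. With colitis 1 of these genes rose and 3 fell in WT, and 2 rose and 2 fell in KO, beside the same 63.1% and 78.4%. Of 14 structural genes of the brush border, 8 were listed and 0 in a KO against WT table, beside the same 0.890% and 1.08%. Their differences lay between -0.24 and 0.09 in control and between -0.30 and 0.09 in colitis, with medians of 0.01 and -0.14. In colitis 1 rose and 4 fell in WT, and 1 rose and 7 fell in KO, beside the same 63.1% and 78.4%.

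The tissue was checked against cell type markers, of which only those in the tables have a value. Of 6 colonocyte markers 4 were listed, all at 9.36 log2 RPM or more in every group, such as Car1 at 11.7 in WT control. Their KO minus WT difference ran from -0.15 to 0.09 in control and from -0.81 (Car1) to 0.59 in colitis. Of 5 goblet cell markers 2 were listed, of 7 general epithelial markers 0, of 5 leukocyte markers 4 and of 3 smooth muscle markers 2. In control the KO minus WT difference ran from -0.82 to 0.23 for goblet and from -0.78 to 0.19 for leukocyte markers. It ran from -0.12 to -0.09 for muscle markers. In colitis these ranges were -0.24 to 0.23, -0.39 to 0.16 and -0.05 to 0.02. Small intestinal cells, the usual site of trehalase, were of interest beside the Treh result. Of 8 small intestinal enterocyte markers 3 were listed, and their summed level was 620.6 RPM in WT control, 580.3 in KO control, 309.4 in WT colitis and 256.2 in KO colitis. Most of this was Fabp2, whose KO minus WT difference was -0.09 in control and -0.32 in colitis. Rbp2 had -0.22 and -0.01, and Fabp6, a bile acid binding protein of the ileum, had 0.19 and 1.21. Of 5 Paneth cell markers only Mmp7 was listed, at 0.22 log2 RPM in WT control, -0.26 in KO control, 3.08 in WT colitis and 2.53 in KO colitis. None of the listed markers is in a KO against WT table, beside 0.890% (control) and 1.08% (colitis) of all listed genes. The part of small intestinal cells in the Treh values was not tested.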

How the data were processed

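The 16 colon RNA-seq libraries were grouped by their GEO labels. Per the study's methods and the submitters' processing notes, the authors mapped reads with HISAT2 2.1.0 to GRCm38, removed reads over annotated ribosomal RNA because of contamination in some samples, counted reads in SeqMonk and ran DESeq2 on raw counts. The deposited values used here are the authors' group means of log2 RPM, not corrected for gene length. The authors' adjusted p-values in the tables were not used, nor were the read counts by sample in the study's supplement. The members and gene lists were chosen with earlier results of these data known. Differences, ranks and distances were computed in Python 3.11.15 with pandas 2.3.3, and Poisson intervals in SciPy 1.17.1. Since a group mean fixes the product of its libraries' reads, whole-read sets were recovered from that product at a tolerance of 1e-05. All 297, 276, 105 and 102 means with a product under 400 (controls WT and KO, then colitis WT and KO) lay on such steps. On simulated libraries of 5171 genes the true number of libraries at 0 was among those recovered for 100% of such means in each group. The search tries every number of libraries at 0, so this outcome was fixed by construction. It checks the code only and does not show that a recovered set is the true one. Intervals and floors cover counting error only. Genes named are the members, listed genes within 1 Mb, the 5 nearest by distance, listed members of the gene lists, and Smarcad1. Khdc1a and Slc7a15 were named after their values were seen, as genes that stand beside the pair by difference. Alternatives were other pseudocounts, floors, centring, windows and measures of likeness. The labels do not say whether mice of a group shared a litter or cage.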

Additional observations from a re-analysis of the deposited data

How the results depend on the processing

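No paired analysis was possible because the deposited tables used here hold group means that carry no replicate numbers, and for the same reason no library was left out. A value is called stable here if it moved by less than 0.2 on the log2 scale, or a count or rank by at most 1.5 times. Of 49 alternatives over 18 values, 30 were stable and 18 were not, and the direction turned in 1. With 0.1 RPM added, KO minus WT was 2.09 in control and 3.26 in colitis for Treh and 4.54 in control for AC151971.2, and the Treh change with colitis in WT was -0.53. With 1 RPM added, KO minus WT was 0.95 and 1.52 for Treh and 3.27 and 3.25 for AC151971.2, and the change with colitis was -0.13 in WT and 0.44 in KO for Treh and 0.37 in WT for AC151971.2. An added constant shrinks differences between low values by construction. With means at or under 3 reads raised to 3 reads, KO minus WT of Treh was 2.63 in colitis, and its change with colitis in WT turned from -0.79 to 0.34, since both WT means are then replaced by floors of unequal depth. With 0 reads taken as 0.5 of a read in the WT groups, an alternative added after seeing the data like the ranks with raised means, KO minus WT of Treh was 2.74 in control. KO stood above WT in both conditions under each of these settings, of which that of 0 reads was run for Treh alone. None of these settings could have turned this order, so nothing is read from it. Recentring on the median listed gene moved no value by 0.2. Against a floor of 5 reads in place of 3, the Treh fold was 2.92 in control and 3.70 in colitis. Ranked by Pearson's r among 291 genes in place of distance, 2 of the 5 nearest genes of each member were kept. Starts up to 2000 bp apart gave 49 divergent pairs, and a window of 0.5 Mb gave 24 listed neighbours. With 6 reads in the WT colitis group, a fold for Treh is limited by depth, and the spread between mice was not analysed here.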
